A study of Mus musculus with 24 samples.

Results

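The miR-30 family was followed through mouse serum extracellular vesicle (EV) small RNA libraries after tibia surgery. Its members were taken by name from the deposited miRNA count table: mmu-miR-30a-5p, mmu-miR-30b-5p, mmu-miR-30c-5p, mmu-miR-30d-5p, mmu-miR-30e-5p, mmu-miR-30a-3p and mmu-miR-30e-3p (written below without mmu, for mouse), which are 7 of the 1966 mature miRNAs listed there. The mice were wild type C57BL/6 males of 14 to 16 weeks. S6h, S24h and S72h mice had an open tibia fracture stabilized with a pin under isoflurane and buprenorphine, and serum was taken 6, 24 or 72 h later. S24h and S72h mice received the analgesic daily, and Control mice received saline. Each group held 6 mice, and each mouse gave 1 library. By the study design, the Control mice were handled with the S6h mice, and S24h and S72h mice had control mice of their own that were not analysed here. In S24h or S72h against Control, and in S24h against S6h, the time after surgery, the repeated analgesia and the set of animals therefore cannot be told apart. Surgery, anesthesia and analgesic cannot be told apart in any comparison with Control, that at 6 h included. The paper gives the lack of a group with anesthesia alone as a limitation. It found no statistical difference in miRNA between the sets of control mice, and kept only the set used here.

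A mature miRNA guides an Argonaute protein to messenger RNAs, mostly by pairing through the seed, the bases near its 5' end, and lowers the output of those messengers. The 5p arms of the miR-30 family carry the same seed, so they can address overlapping sets of messengers, while the 3p arms carry another seed. The family is abundant in kidney, heart and lung, and has been studied for its part in epithelial differentiation, kidney podocytes and autophagy. EVs are membrane particles that cells release into blood, and their miRNAs can come from any tissue or blood cell.

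The mature sequences show which members can be told apart by sequence, which matters for reading their counts side by side. Of the 7 members, 5 were matched in the RefSeq miRNA table of GRCm38.p6. The matched 5p members are given first, 5' to 3', with bases 2 to 8 (the seed) in capitals.
miR-30a-5p: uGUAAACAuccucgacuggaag
miR-30e-5p: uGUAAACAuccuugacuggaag
miR-30c-5p: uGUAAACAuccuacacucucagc
The matched 3p members follow in the same notation.
miR-30a-3p: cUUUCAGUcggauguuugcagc
miR-30e-3p: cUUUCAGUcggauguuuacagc
With positions counted from 1 at the 5' end, miR-30a-5p and miR-30e-5p differed by C13U alone over 22 bases. The 3p arms of the same hairpins differed by G18A alone. miR-30c-5p shared its first 12 bases with miR-30a-5p and then differed by C13A, G14C, G18C, G19U and A20C. The seed GUAAACA was held by 4 mature names of the 1679 in the RefSeq table, which were miR-30a-5p, miR-30c-5p, miR-30e-5p and miR-384-5p. The seed UUUCAGU was held by miR-30a-3p and miR-30e-3p. How many mismatches the mapping allowed, and how reads that match more than 1 place were counted, is not given in the sources used here. Counts of miR-30a and miR-30e, which differ by a single base in each arm, could therefore be split by the counting. Reads of miR-30c-5p match more than 1 hairpin even without a mismatch, so its count depends on that choice too.

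The matched members come from 4 hairpins (GRCm38.p6). Mir30a lies at chr1:23272269-23272339 on the plus strand, where Gencode gives no other gene, and holds miR-30a-5p at 23272274 to 23272295 and miR-30a-3p at 23272315 to 23272336. Mir30c-2 lies 19361 bases farther on the same strand, at chr1:23291701-23291784, in an exon of the long noncoding RNA gene Gm27028. Mir30c-1 at chr4:120769534-120769622 and Mir30e at chr4:120772606-120772697 are separated by 2983 bases on the minus strand, both in an intron of Nfyc, which encodes a subunit of the transcription factor NF-Y. The mature miR-30c-5p of Mir30c-1 and Mir30c-2 is identical, so these loci cannot be told apart in its count.

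Total counts were 63956 to 263211 in Control, 102568 to 471801 in S6h, 66652 to 143856 in S24h and 65017 to 245013 in S72h. A count of 0 allows up to 3 counts, or 6.36 to 46.9 CPM (counts scaled to the total of the library) depending on the library. This covers counting error only. All 7 members passed the filter on low counts (at least 10 CPM in at least 12 of 24 libraries), as did 252 miRNAs in all. EV identity cannot be checked in miRNA counts. The summed erythroid list (8 miRNAs, among them miR-451a) reached 54179 to 237456 CPM over the 24 libraries, so miRNAs known from red blood cells were present in each of them. The liver list reached 299754 CPM in 1 S72h library, and the S72h group had a median of 8064 CPM for that list. Levels are given as CPM of the total counts of a library.

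miR-30d-5p was the most abundant member and ranked 19 among all miRNAs by mean CPM. miR-30c-5p ranked 28, miR-30a-5p 29, miR-30e-5p 33, miR-30b-5p 62, miR-30a-3p 93 and miR-30e-3p 128. This order was not fixed in single libraries. miR-30d-5p exceeded miR-30e-5p in 24 of 24 libraries, and miR-30a-5p and miR-30c-5p each exceeded miR-30b-5p in 24. The neighbours in the middle of the order changed places, since miR-30a-5p exceeded miR-30c-5p in 7 libraries, of which 2 were Control, 4 S6h, 0 S24h and 1 S72h. miR-30c-5p exceeded miR-30d-5p in 5 libraries.

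**Figure D1:**
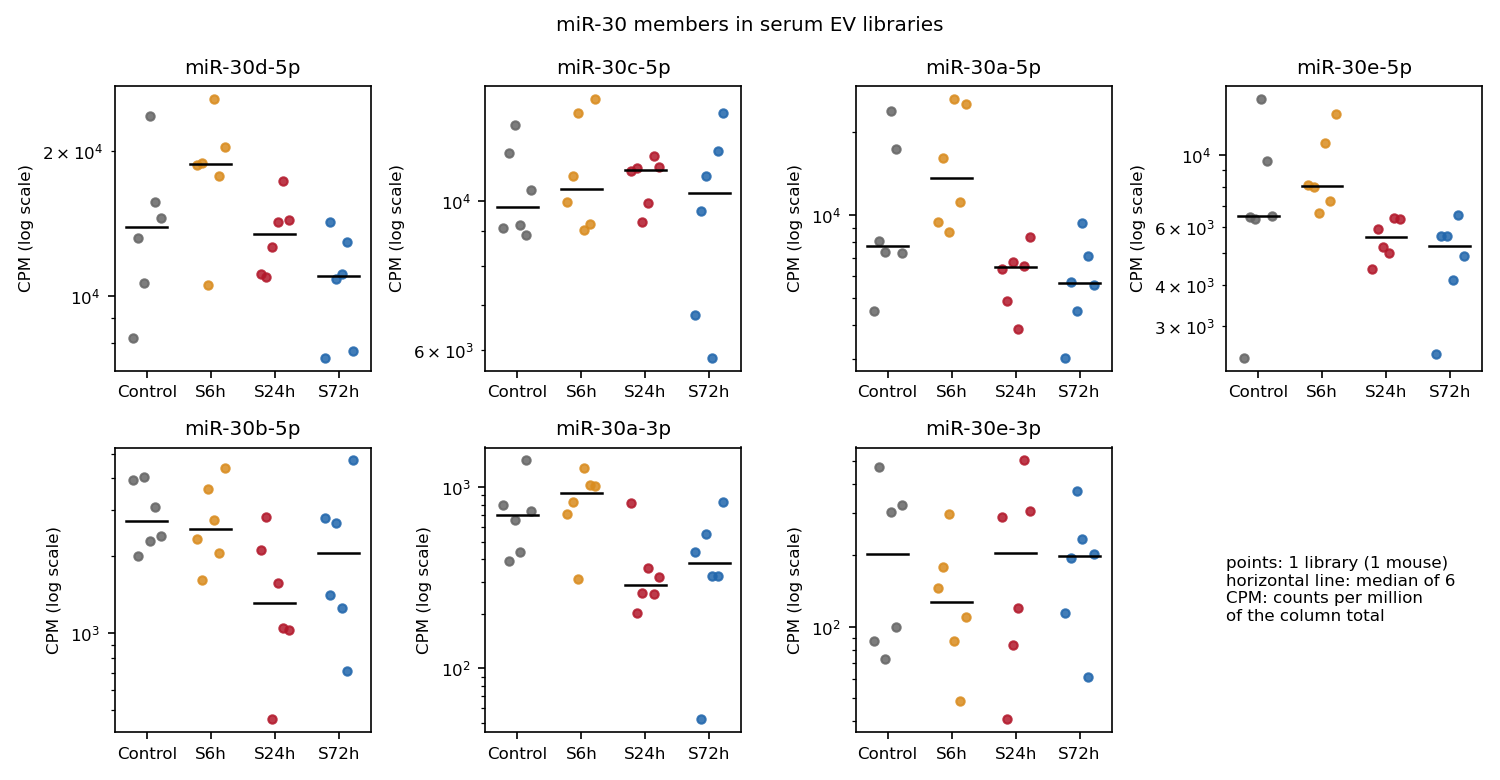
CPM (log scale) of the 7 members in each library, by group. Each point is 1 mouse and each horizontal line the median of 6. The S24h points of miR-30a-5p reach 8335 CPM and those of S6h start at 8653 CPM, while the groups of miR-30c-5p overlap throughout.

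miR-30a-5p had 4476, 8084, 7335, 23758, 17400 and 7291 CPM in Control replicates 1 to 6. The S6h libraries had 9450, 16129, 8653, 26333, 11183 and 25323 CPM. The S24h libraries had 6386, 4864, 6771, 3856, 6535 and 8335 CPM, and the S72h libraries 3037, 5712, 4474, 9373, 7090 and 5598 CPM. Control replicates 4 and 5 stood with the high S6h libraries, and each S24h library lay below each S6h library. The mean was 11391 ± 7498 CPM in Control, 16179 ± 7920 in S6h, 6124 ± 1567 in S24h and 5881 ± 2183 in S72h (SD, n = 6).

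miR-30e-5p, which differs from it at a single base, was lower on average in each group. Its lowest, median and highest CPM were 2386, 6482 and 14870 in Control and 6635, 8034 and 13323 in S6h. They were 4485, 5591 and 6413 in S24h and 2449, 5279 and 6552 in S72h. Here too no S24h library reached the lowest S6h library. The mean was 7697 ± 4198 CPM in Control, 9022 ± 2561 in S6h, 5575 ± 785 in S24h and 4890 ± 1445 in S72h (SD, n = 6).

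miR-30d-5p ranged from 8187 to 23594 CPM in Control (median 13868) and from 10543 to 25564 CPM in S6h (median 18774). It ranged from 10976 to 17273 CPM in S24h (median 13451) and from 7453 to 14266 CPM in S72h (median 10997). The highest Control and S6h libraries were again the replicates 4 of each group, and all groups overlapped.

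miR-30c-5p had the narrowest range of the 5p members over the 24 libraries. Within S72h this did not hold, since its coefficient of variation was 30.4% there, against 25.5% for miR-30d-5p and 29.5% for miR-30e-5p. Its means were 10381 ± 1657, 11120 ± 2195, 10714 ± 901 and 9740 ± 2962 CPM in Control, S6h, S24h and S72h (SD, n = 6). Over the 24 libraries its highest value was 2.42 times its lowest, against 3.43 times for miR-30d-5p, 6.23 times for miR-30e-5p, 8.67 times for miR-30a-5p and 10.2 times for miR-30b-5p. Each surgery group overlapped Control for this miRNA.

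miR-30b-5p had 3932, 2001, 4045, 2272, 3087 and 2392 CPM in Control replicates 1 to 6. The S6h libraries had 2320, 1613, 3652, 2743, 2047 and 4387 CPM, and the S24h libraries 2111, 2818, 459.7, 1560, 1044 and 1029 CPM. The S72h libraries spread from 707.5 to 4701 CPM with a median of 2050 CPM. In S24h, 4 of 6 libraries lay below each Control library, and the other two were within the Control range.

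The 3p arms were rarer. miR-30a-3p had lowest, median and highest values of 390.9, 701.8 and 1405 CPM in Control, 310.5, 923.8 and 1270 CPM in S6h, 203.3, 289.4 and 813.0 CPM in S24h and 52.2, 380.7 and 829.6 CPM in S72h. In S24h 5 of 6 libraries were below each Control library, the exception being replicate 1. miR-30e-3p rested on 3 to 44 counts per library, with group means between 144.5 ± 87.3 CPM in S6h and 226.5 ± 163.4 CPM in Control (SD, n = 6) and coefficients of variation of 54.4 to 78.1% within groups. Of the other miR-30 names in the table, miR-30c-2-3p had 137 counts in 16 libraries, miR-30c-1-3p 26 counts in 3 libraries and miR-30b-3p 11 counts in 2 libraries, while miR-30d-3p and miR-30f had 0 counts in the 24 libraries.

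Together the 7 members took 4.77 ± 1.57% of all miRNA counts in Control, 5.87 ± 1.496% in S6h, 3.79 ± 0.38% in S24h and 3.41 ± 0.59% in S72h (SD, n = 6). The spread was wide in Control (2.90 to 7.44%) and S6h (4.36 to 7.86%) and narrower in S24h (3.48 to 4.37%). No test was run on this share. With TMM library sizes the means were 4.81, 6.26, 3.41 and 3.64%, so the order of S24h and S72h depended on the scaling. Most of the difference in means came from miR-30a-5p, miR-30d-5p and miR-30e-5p, which summed to 33393, 43815, 25140 and 21498 CPM in Control, S6h, S24h and S72h. miR-30b-5p and miR-30c-5p summed to 13336, 13914, 12218 and 12002 CPM in the same groups. Among the 5p counts, miR-30a-5p made up 22.5 ± 7.5% in Control, 26.7 ± 6.6% in S6h, 16.3 ± 3.6% in S24h and 17.5 ± 6.2% in S72h (SD, n = 6).

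**Figure D2:**
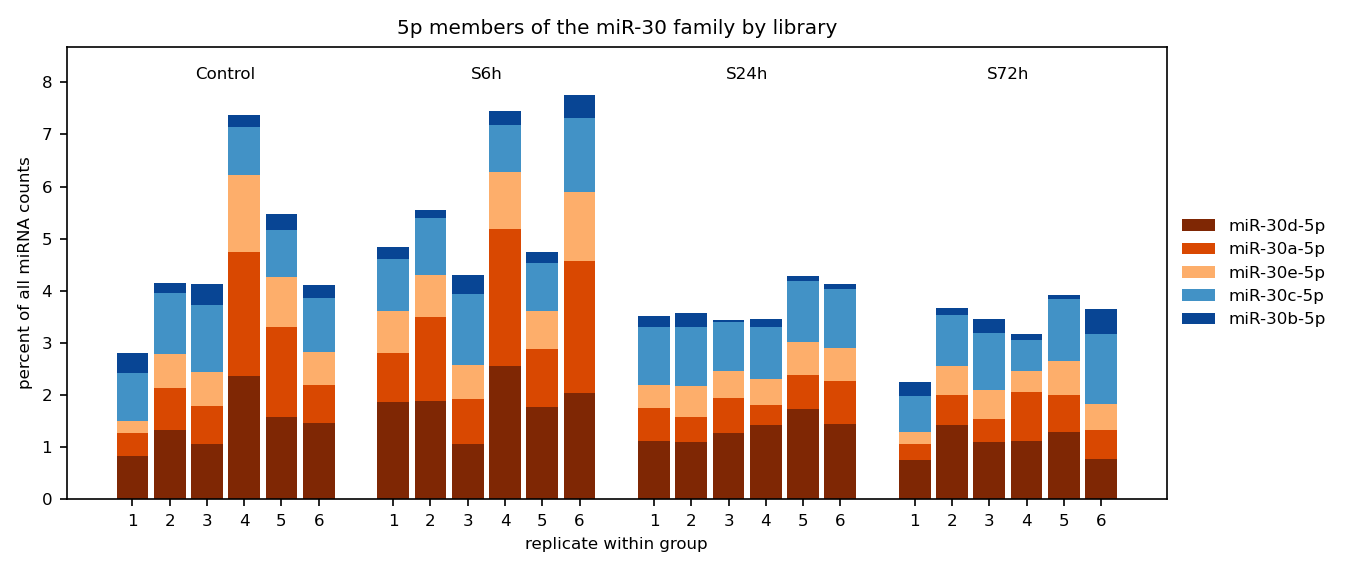
Stacked bars of the 5 members of the 5p arm as percent of all miRNA counts in each of the 24 libraries, ordered by group and replicate. The tallest bars are S6h replicates 4 and 6 and Control replicate 4, and the orange and brown segments (miR-30a-5p, miR-30d-5p and miR-30e-5p) account for most of their height.

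The first question was whether members differed from Control after surgery. Fold changes are from edgeR's quasi-likelihood test on library sizes scaled by TMM, with 1 model of the 4 groups and Benjamini-Hochberg adjustment over 252 miRNAs, and calls required both an adjusted p under 0.05 and a change of 1.5-fold or more. At 6 h, 0 of 7 members were called, beside 0 of 252 miRNAs (0%), and 0 members and 9 of all miRNAs had an unadjusted p under 0.05. DESeq2 also called 0 members and 0 miRNAs. The log2 fold change was 0.60 for miR-30a-5p (2 standard errors either side, -0.19 to 1.40), 0.46 for miR-30d-5p (-0.12 to 1.03), 0.31 for miR-30e-5p (-0.31 to 0.92) and 0.16 for miR-30c-5p (-0.27 to 0.59). The others were at 0.32 for miR-30a-3p (-0.61 to 1.26), -0.03 for miR-30b-5p (-0.82 to 0.75) and -0.58 for miR-30e-3p (-1.95 to 0.78). Thus 5 members lay above 0 and 2 below. These intervals span 0 and do not show that the groups were alike.

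At 24 h the log2 fold changes of the 7 members were below 0, with a median of -0.64 against -0.21 over all 252 miRNAs. No member was called by edgeR, whereas 30 of 252 miRNAs (11.9%) were called. Of the members, 4 had an unadjusted p under 0.05, as did 74 of all 252 miRNAs. miR-30b-5p came nearest, at a log2 fold change of -1.15 ± 0.40 (SE) with an edgeR adjusted p of 0.0553. With DESeq2 it was the only member called, at -1.02 with an adjusted p of 0.0449, beside 50 of 252 miRNAs (19.8%). miR-30a-5p had -1.08 ± 0.40 (SE, edgeR adjusted p = 0.0624) and miR-30a-3p -1.15 ± 0.48 (SE, edgeR adjusted p = 0.0971). miR-30e-5p had a log2 fold change of -0.64 and miR-30d-5p of -0.26, with edgeR adjusted p of 0.162 and 0.620. miR-30c-5p was at -0.12 (-0.55 to 0.31), a direction that turned to 0.03 with RLE scaling and 0.05 with column totals.

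At 72 h the fold changes of the 7 members were again below 0, with a median of -0.34 against -0.06 over all miRNAs. No member was called, beside 9 of 252 miRNAs (3.57%). An unadjusted p under 0.05 was found for 0 members and for 48 of all miRNAs. The count of 9 was unstable, from 0 in a model of only the groups compared to 27 with DESeq2. DESeq2 called 0 members beside those 27 miRNAs (10.7%). miR-30a-5p stood at -0.78 (-1.58 to 0.01) and miR-30e-5p at -0.61 (-1.23 to 0.01), both with an edgeR adjusted p of 0.270. These differences moved with a single library. Without Control replicate 4 the log2 fold changes of S72h, S24h and S6h against Control were -0.35, -0.65 and 1.03 for miR-30a-5p, and -0.24, -0.27 and 0.68 for miR-30e-5p. miR-30d-5p was then at 0.0022 at 24 h and 0.72 at 6 h. At 6 and 72 h no member was called without that library. At 24 h miR-30b-5p was called (-1.20, edgeR adjusted p = 0.0486), beside 39 of 252 miRNAs. Other removals lowered the 6 h values. Without S6h replicate 4 miR-30a-5p was at 0.35 and miR-30d-5p at 0.29, and without Control replicate 1 miR-30e-5p was at 0.13. The comparisons at 6, 24 and 72 h share the 6 Control libraries.

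The second question was how the later time points differed from the earlier ones. Between S24h and S6h, miR-30a-5p was 3.21-fold lower in S24h, miR-30a-3p 2.78-fold, miR-30b-5p 2.17-fold and miR-30e-5p 1.92-fold. These 4 of 7 members were called, all lower, beside 51 of 252 miRNAs called in either direction (20.2%) and 35 called lower (13.9%). The log2 fold change was -1.68 ± 0.41 for miR-30a-5p (SE, edgeR adjusted p = 0.00305), and 6 of 6 S24h libraries were below the S6h median. miR-30a-3p had -1.47 ± 0.48 (SE, edgeR adjusted p = 0.0324), also with 6 of 6 libraries below. miR-30e-5p had -0.94 ± 0.31 (SE, edgeR adjusted p = 0.0325, 6 of 6 below) and miR-30b-5p -1.12 ± 0.40 (SE, edgeR adjusted p = 0.0435, 5 of 6 below). The CPM of miR-30a-5p and of miR-30e-5p did not overlap between these groups, as for 26 of 252 miRNAs (10.3%).

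The remaining members were not called in S24h against S6h. miR-30d-5p had a log2 fold change of -0.71 (-1.29 to -0.14, edgeR adjusted p = 0.0822). miR-30c-5p had -0.27 (-0.70 to 0.16) and miR-30e-3p 0.43 (-0.94 to 1.80). The median over the 7 members was -0.94, against -0.23 over all 252 miRNAs.

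Only miR-30a-5p was called under each scaling and each removal of a library that was tried. With RLE scaling or column totals 1 member was called, beside 43 and 37 of 252 miRNAs. DESeq2 called 2 members (miR-30a-5p and miR-30a-3p, beside 59 of 252 miRNAs or 23.4%). Without S6h replicate 4, S6h replicate 6, S24h replicate 3 or S24h replicate 6, 1 member was called, and without S24h replicate 4 or 5, 2 were. Over all removals of 1 library, 32 to 53 of 252 miRNAs were called. The scaling also moved the middle of the distribution, since the median log2 fold change of all miRNAs in this comparison was -0.23 with TMM, 0.06 with RLE and -0.0047 with column totals. Relative to that median, miR-30a-5p was at -1.45, -1.46 and -1.40, miR-30e-5p at -0.71, -0.73 and -0.69, miR-30b-5p at -0.89, -0.92 and -0.89, and miR-30c-5p at -0.04, -0.09 and -0.05 under the 3 scalings. Calls over all miRNAs were 16 higher and 35 lower with TMM, 22 and 21 with RLE, and 19 and 18 with column totals. In S24h against Control the same split was 10 and 20, 18 and 19, and 17 and 20, and the median -0.21, -0.06 and -0.03.

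**Figure D3:**
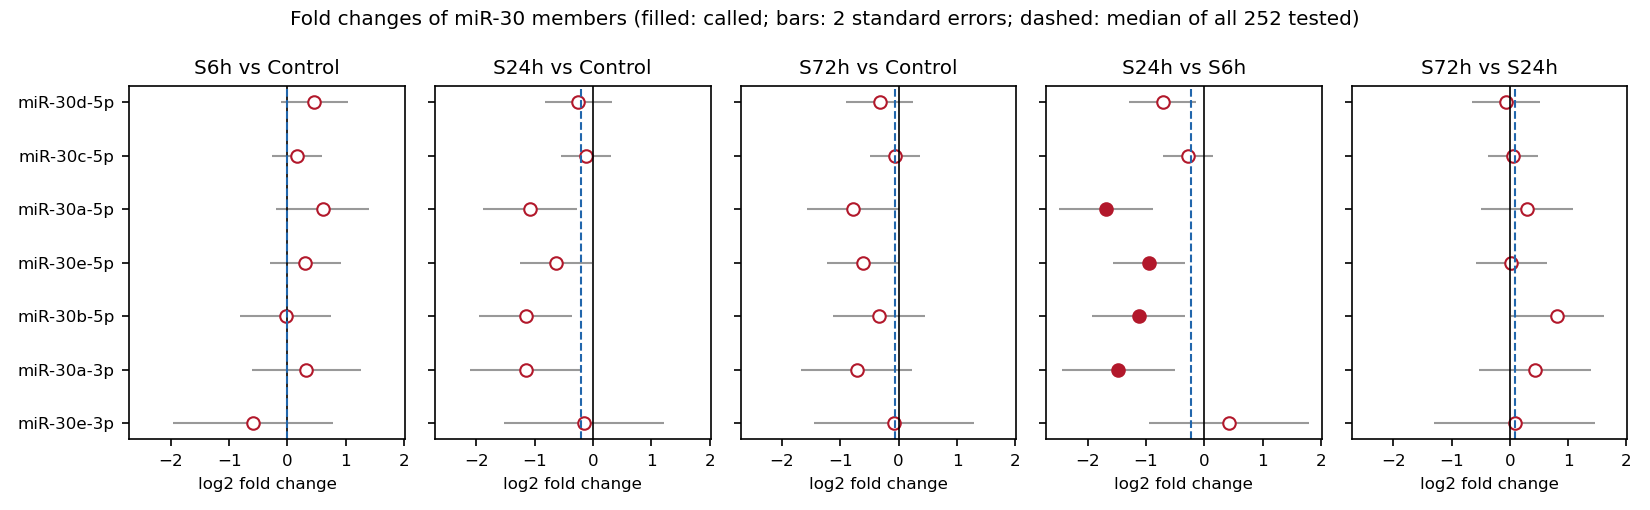
Log2 fold change of each member in the 5 comparisons (points), with bars of 2 standard errors and the median of all 252 miRNAs as a dashed line. Filled points mark the 4 members called in S24h against S6h, where miR-30a-5p lies at -1.68 and miR-30c-5p at -0.27.

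Members of other miRNA lists were called in the same comparison. The summed erythroid list had a median of 154360 CPM in S6h (98881 to 173653) and 89590 CPM in S24h (54179 to 155324), and 3 of its 8 tested miRNAs were called lower. The skeletal muscle list had a median of 117926 CPM in S6h (60182 to 265491) and 33230 CPM in S24h (15682 to 43550), and 3 of its 5 tested miRNAs were called lower. The kidney and epithelium list had a median of 10767 CPM in S6h (7937 to 14396) and 4275 CPM in S24h (2581 to 14390), with 3 of 10 tested called lower. None of these 3 lists held a miRNA called higher. The leukocyte list went the other way, with a median of 3436 CPM in S6h and 6985 CPM in S24h and 1 of 4 tested called higher. Of the platelet list 1 of 3 tested was called lower, at medians of 9066 and 8458 CPM. The liver list had medians of 68536 CPM in Control, 13174 CPM in S6h and 18523 CPM in S24h, and its 1 tested miRNA was called neither in S24h against S6h nor in S24h against Control. In S24h against Control, 5 of the 8 erythroid miRNAs were called lower, as were 0 of 5 muscle and 1 of 10 kidney and epithelium miRNAs, and no platelet or leukocyte miRNA was called. Fewer EVs from a cell type and less of a miRNA per EV cannot be told apart in these libraries. When the erythroid list was removed from the table before scaling, an alternative chosen after seeing the data, miR-30a-5p (-1.59, edgeR adjusted p = 0.00524) and miR-30a-3p (-1.39, edgeR adjusted p = 0.0406) remained called, while miR-30b-5p (-1.04, edgeR adjusted p = 0.0680) and miR-30e-5p (-0.86, edgeR adjusted p = 0.0541) were not. With that list in the table these log2 fold changes were -1.12 and -0.94, from the same counts and mice. Without it, 43 of 244 miRNAs were called. Without the skeletal muscle list 3 members were called, beside 41 of 247 miRNAs. There miR-30b-5p was lost at -1.10 with an edgeR adjusted p of 0.0513. Removing a list changes the scaling and the adjustment, but the miR-30 counts stay as they were. The part of these cell types in the fold changes of the family was therefore not tested.

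Between S72h and S24h no member was called, beside 1 of 252 miRNAs (0.397%), with 29 miRNAs at an unadjusted p under 0.05 and 4 called by DESeq2 (1.59%), none of them a member. miR-30b-5p had the largest difference of the family, a log2 fold change of 0.81 (0.02 to 1.61) with an unadjusted p of 0.0487 and an edgeR adjusted p of 0.431. The intervals of miR-30a-5p (-0.49 to 1.09) and miR-30c-5p (-0.38 to 0.48) span 0.

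Ratios within a library do not depend on scaling, so they ask directly whether members of the family changed unequally. For 7 ratios in 5 comparisons, 35 exact two-sided permutation tests over all splits of 12 libraries were run on log2 ratios of counts, with Benjamini-Hochberg adjustment over the 35. The log2 ratio of miR-30a-5p to miR-30c-5p was 0.42 ± 0.75 in S6h and -0.84 ± 0.38 in S24h (SD, n = 6, exact permutation p = 0.00649, adjusted p = 0.164), and 6 of 6 S24h libraries lay below the S6h median. The ratio of miR-30a-5p to miR-30d-5p was -0.30 ± 0.47 in S6h and -1.16 ± 0.43 in S24h (SD, n = 6, exact permutation p = 0.0108, adjusted p = 0.164). None of the 35 tests passed the adjusted threshold. The smallest p that a test can give here is 0.00216, which adjusts to 0.0758 when no other test is as low, so that no ratio could pass on its own. The ratios therefore do not settle whether members changed unequally, and they do not show that members changed alike.

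**Figure D4:**
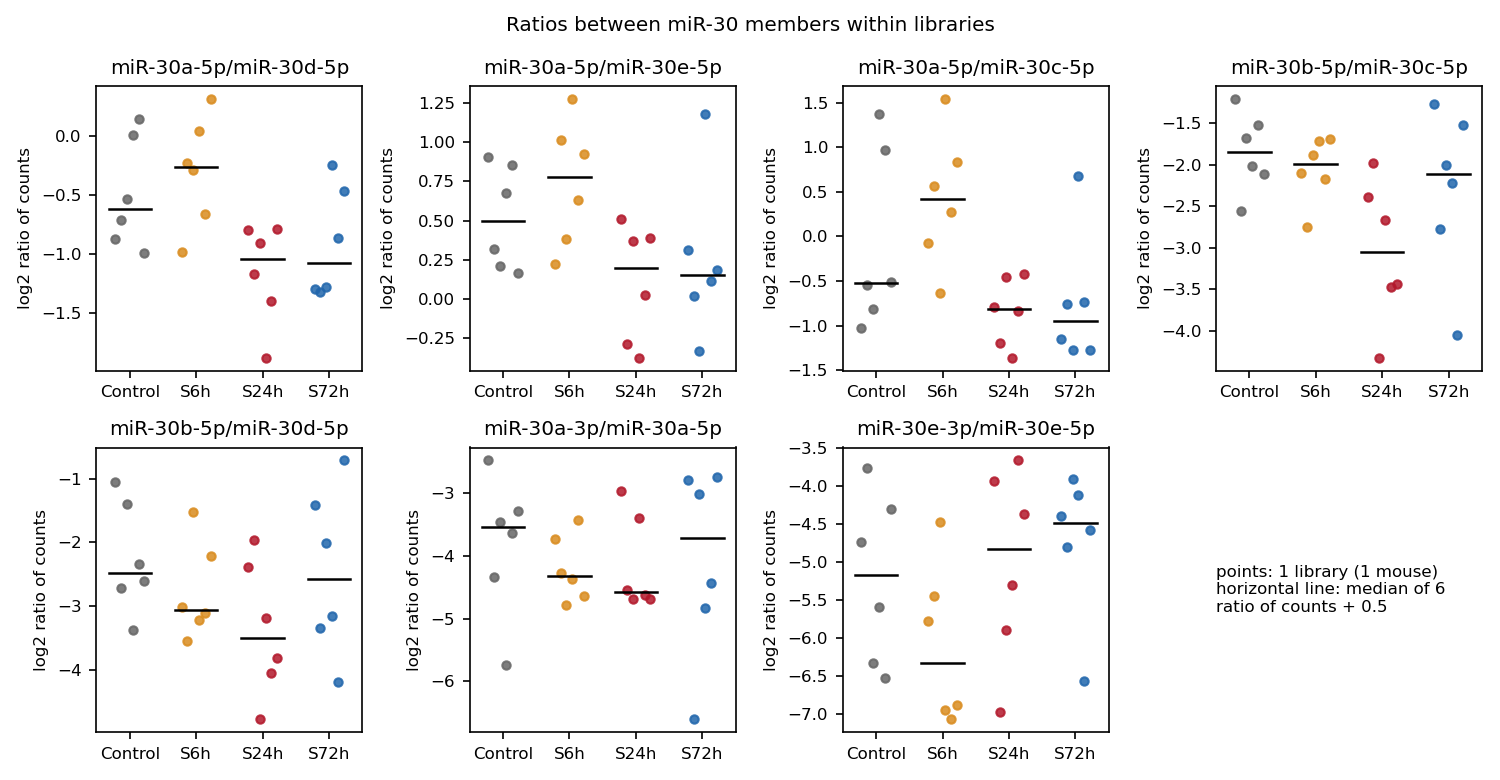
Log2 ratios of counts (with 0.5 added to each count) for the 7 pairs of members in each library, by group; points are mice and lines medians of 6. The ratio of miR-30a-5p to miR-30c-5p averages 0.42 in S6h and -0.84 in S24h, and the groups overlap.

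Across the 24 libraries miR-30a-5p, miR-30d-5p and miR-30e-5p varied together. Pearson's r of log2(CPM + 4) was 0.851 for miR-30a-5p and miR-30e-5p, 0.850 for miR-30d-5p and miR-30e-5p, and 0.798 for miR-30a-5p and miR-30d-5p. After removing group means the values were 0.789, 0.793 and 0.733. miR-30c-5p and miR-30b-5p had lower values with these 3. The r of miR-30c-5p was 0.074 with miR-30a-5p, 0.353 with miR-30e-5p (0.279 within groups) and 0.048 with miR-30d-5p. That of miR-30b-5p was 0.114, 0.059 and -0.189 with the same members, and -0.287, -0.200 and -0.495 within groups. The members of a hairpin did not always move together either, since the arms of Mir30a had r = 0.444 (0.104 within groups) and those of Mir30e r = 0.040 (0.152 within groups), the latter resting on few counts of miR-30e-3p. These are descriptions over 24 libraries that share the total used for CPM, and near-identical sequences may share reads.

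**Figure D5:**
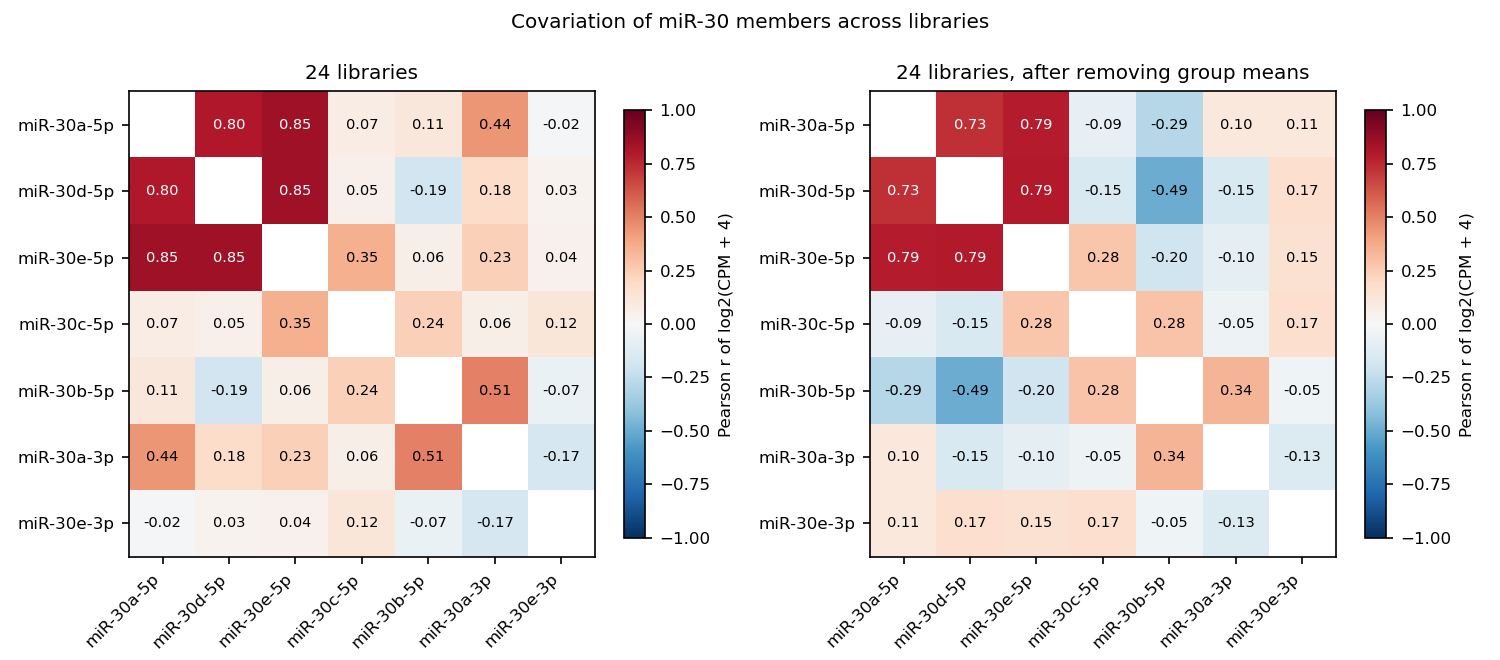
Pearson's r of log2(CPM + 4) between members over 24 libraries (left) and after removing group means (right), on a color scale from -1 to 1. miR-30a-5p, miR-30d-5p and miR-30e-5p form a block with r from 0.798 to 0.851, and miR-30b-5p and miR-30d-5p are at -0.189.

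Among tested miRNAs outside the family, the 2 most like each member were found over the 24 libraries. miR-30a-5p was closest to miR-143-3p (r = 0.806, and 0.656 within groups), which is known from smooth muscle. Next was miR-22-3p (r = 0.758, and 0.562 within groups). miR-30e-5p was closest to miR-145a-3p (r = 0.720), encoded with miR-143, and to miR-143-3p itself (r = 0.688). Within groups these were 0.754 and 0.607. miR-30d-5p was closest to let-7d-3p (r = 0.778) and miR-125a-5p (r = 0.721), with 0.745 and 0.607 within groups. miR-30b-5p had its closest patterns in miR-25-3p (r = 0.848) and miR-451a (r = 0.837), and within groups these were 0.823 and 0.765. miR-451a is the most abundant miRNA of red blood cells. miR-30a-3p was about as close to miR-25-3p (r = 0.680) as to miR-143-3p (r = 0.679), and within groups these fell to 0.505 and 0.443. Over the 24 libraries miR-143-3p was thus among the closest for 3 members and miR-25-3p for 2. miR-30c-5p was closest to miR-15b-5p (r = 0.722) and miR-27a-3p (r = 0.661). These were 0.783 and 0.743 within groups, and 0.533 and 0.462 without the 2 libraries farthest from the median. For miR-30e-3p the values were 0.493 (miR-126a-3p) and 0.481 (miR-139-5p), with 0.581 and 0.549 within groups.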

How the data were processed

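Small RNA of serum EVs was measured in 24 libraries. According to the paper's methods, RNA was isolated with a Norgen kit and libraries were made with the NEXTFLEX kit, and the authors removed adapters (cutadapt) before mapping with Bowtie to GRCm38, keeping alignments of 20 to 24 bases, and used featureCounts on miRBase 22 for counting. The deposited values are whole-number counts without normalization. Groups and replicate numbers came from the sample titles. The members and lists were chosen with earlier results of these data known. Named miRNAs were the 7 members, other miR-30 arms by their counts, and for each member the 2 tested miRNAs outside the family with the highest r.

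edgeR 4.0.16 (quasi-likelihood test, TMM) was run in R 4.3.3 with the filter and thresholds given above, and DESeq2 1.42.0, the paper's tool, was an alternative. Ratios had a pseudocount of 0.5 and were tested in scipy 1.17.1. p values measure the spread between mice. Scripts were tested on simulated data. Coordinates are from RefSeq and Gencode on GRCm38. No libraries were identical. The other alternatives were RLE scaling, column totals, no filter, a mean of at least 100 CPM, only the groups compared, robust estimation, no fold limit, a block for the replicate number, a pseudocount of 1, leaving out each mouse and, chosen after seeing the data, leaving out the erythroid or the skeletal muscle list.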

Additional observations from a re-analysis of the deposited data

Results flagged for a closer look

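In 3 of 56 sets of 6 libraries, 1 library lay far from the others, where chance alone gives about 1 in 20 sets, or 2.8. All were in S72h. The gap of the lowest miR-30a-3p level (replicate 2, 4 counts) took 0.659 of the range of its group. The highest ratio of miR-30a-5p to miR-30c-5p (replicate 4) had a gap of 0.725 of the range, and the lowest ratio of miR-30e-3p to miR-30e-5p (replicate 5) 0.660.

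The effects at 24 h and at 6 h against the shared Control group differed for 4 members, and the direct comparison of S24h with S6h is the test of that difference. By edgeR's quasi-likelihood test it was -1.68 on the log2 scale for miR-30a-5p, -1.47 for miR-30a-3p, -1.12 for miR-30b-5p and -0.94 for miR-30e-5p. The set of animals and the time cannot be told apart there.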

How the results depend on the processing

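No member was called under any setting tried for S6h against Control, S72h against Control or S72h against S24h. That 0 of 35 ratio tests passed under each setting says little about stability, since no ratio could pass on its own at the smallest possible p of 0.00216, and with the replicate block 22 tests would have to reach the smallest of 0.03125. For S24h against Control, where the main count was 0, DESeq2 and robust estimation each gave 1 member and a model of only the groups compared gave 2. With 1 mouse left out the count ran from 0 to 2 (2 without S24h replicate 1; 1 without Control replicate 1, 2 or 4, S24h replicate 2, or S72h replicate 2, 5 or 6). For S24h against S6h, where the main count was 4, it was 1 with RLE scaling, with column totals and with no filter, 2 with DESeq2, with a mean of at least 100 CPM and without the erythroid list, and 5 with only the groups compared. With 1 mouse left out it ran from 1 to 5. Over all tested miRNAs the calls for S24h against S6h were 37 to 60 under the other settings and 32 to 53 with 1 mouse left out. The cause of these changes was not tested. With TMM library sizes the family share was 3.41% in S24h and 3.64% in S72h. Over all miRNAs, DESeq2 called 50 for S24h against Control. For S72h against Control the count of 9 became 27 with DESeq2, 18 with a mean of at least 100 CPM, 4 without the erythroid list, 2 with column totals, 1 with the replicate block, 0 with only the groups compared and 1 to 14 with 1 mouse left out (1 without Control replicate 2 or 5 or S72h replicate 5, 14 without S72h replicate 1). For S24h against S6h the count of 51 became 32 without S6h replicate 4 or 6 or S24h replicate 3.

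Log2 fold changes near 0 changed sign. For miR-30c-5p in S24h against Control they were 0.034 with DESeq2 and RLE scaling, 0.046 with column totals and 0.019 with a mean of at least 100 CPM, and -0.18 to 0.067 with 1 mouse left out. In S72h against S24h miR-30c-5p had -0.10 with DESeq2 and RLE scaling, -0.14 with column totals, -0.037 with a mean of at least 100 CPM and -0.0010 without the erythroid list, and -0.060 to 0.097 with 1 mouse left out. There miR-30a-5p had -0.060 with column totals and -0.20 to 0.42 with 1 mouse left out. miR-30d-5p in S24h against Control ranged from -0.35 to 0.0022, the last without Control replicate 4. Of 770 refitted member values the direction and the side of the threshold held in 700. The 770 do not cover each member in each comparison. They include refits without a mouse of a group outside the comparison, many of which left the value almost unchanged. That share may therefore overstate stability. Among values not included, in S72h against S24h DESeq2 turned miR-30e-5p from 0.028 to -0.11 and miR-30e-3p from 0.080 to -0.034.

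With the replicate number as a block, 3 members were called for S24h against S6h, miR-30b-5p being lost at -1.08 (edgeR adjusted p = 0.0601), and 0 in the other comparisons. Same-numbered libraries correlated above 0.1 in at most 3 of 6 pairs of any 2 groups. Libraries of unlike number were not compared in this way, so it is not settled whether the numbers pair mice or their handling. miR-30e-3p and the other rare arms rest on few counts.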
